A study of Mus musculus with 8 samples.

Results

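Glycolysis and the response to low oxygen were examined in Yoda1-treated and control lung group 2 innate lymphoid cells (ILC2s). Of the 23183 genes counted in each library, 34 were listed by name as 1 module, with earlier results of these data known. Of these, 22 encode glucose and lactate transporters, the enzymes that take glucose to lactate and the regulators of that route, and 12 encode the oxygen-sensing machinery and further targets of hypoxia-inducible factor (HIF). All 34 had at least 10 counts in 4 or more libraries and all 34 were tested. The study used mice of the genotype C57BL/6 in the labels and C57BL/6J in its methods, 6 to 10 weeks old, that had been given IL-33. Lung ILC2s were enriched with a pan-ILC kit and CD45 beads and then grown with recombinant IL-2, IL-7 and IL-33 at 10 ng/mL of each cytokine. The 4 control libraries came from cultures given 0.1% DMSO, and the 4 treated libraries from cultures given 5 µM Yoda1, a chemical agonist of the mechanosensitive ion channel Piezo1, each for 3 h. Whether the Yoda1 cultures also held DMSO is not given in the sources used here. The wild-type genotype, the IL-33 given to the mice and the culture cytokines were thus common to both groups. Whether the 4 libraries of a group came from separate mice or from 1 cell pool is not given in the sources used here, so the p-values cover only the spread between these libraries, which may be technical.

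Glycolysis splits glucose into pyruvate in the cytosol and yields ATP without oxygen, and lactate dehydrogenase then turns pyruvate into lactate, which leaves the cell through monocarboxylate transporters. When oxygen is present, prolyl hydroxylases of the Egln family mark HIF-1α for destruction. When oxygen is scarce, the protein accumulates and binds short ACGTG or GCGTG motifs near its targets, which include many glycolytic genes, and activated lymphocytes are also known to raise glycolysis with oxygen present. The mRNA of Hif1a therefore does not report the amount of HIF-1α protein, which was not measured in these libraries.

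The HIF core motif is the feature through which these genes are usually grouped, so the bases upstream of their start sites were read from the RefSeq promoter table (GRCm38.p6). ACGTG and GCGTG were searched on both strands in the 250 bases before each start, where a palindromic CACGTG counts once on each strand. Of 31 members with an entry, 29 held the motif in at least 1 of their listed promoters, as did all 4 members with an entry that passed the test below and 25 of the 27 (92.6%) that did not. In comparison, 38.6% of all 32851 promoters held it, and 41.5% of all 27025 genes with an entry held it in at least 1 promoter. Counted by gene in the same way, the share was 62.0% of the 9319 tested genes with an entry. Among the 1029 tested genes with an entry that passed the test it was 62.7%. Gpi1 and Tpi1 had none. Slc2a3, Bnip3l and Ndrg1 had no entry. A match is only a description of the letters, and genes with several listed promoters had more chances of one. The upstream bases of 4 members are shown with the motif in capitals, P4ha1 and Pfkp because their mRNA rose with Yoda1, and Ldha and Bnip3 because their windows hold the most matches, with 5 each, although neither gene passed the test. The windows are chr10:59323046-59323295 on the plus strand for P4ha1, chr13:6648772-6649021 on the minus strand for Pfkp, chr7:46845554-46845803 on the plus strand for the first of the Ldha promoters and chr7:138909507-138909756 on the minus strand for Bnip3, each written 5′ to 3′ in the direction of the gene.
P4ha1: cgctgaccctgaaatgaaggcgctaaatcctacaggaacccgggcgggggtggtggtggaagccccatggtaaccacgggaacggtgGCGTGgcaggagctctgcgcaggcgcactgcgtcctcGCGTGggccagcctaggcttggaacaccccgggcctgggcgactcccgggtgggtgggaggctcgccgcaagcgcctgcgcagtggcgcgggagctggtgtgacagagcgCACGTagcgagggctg
Pfkp: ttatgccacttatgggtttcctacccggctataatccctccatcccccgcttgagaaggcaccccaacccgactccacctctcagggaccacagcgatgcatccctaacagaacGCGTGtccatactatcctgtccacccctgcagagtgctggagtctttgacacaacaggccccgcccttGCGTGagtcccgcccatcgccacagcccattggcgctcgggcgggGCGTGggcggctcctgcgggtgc
Ldha: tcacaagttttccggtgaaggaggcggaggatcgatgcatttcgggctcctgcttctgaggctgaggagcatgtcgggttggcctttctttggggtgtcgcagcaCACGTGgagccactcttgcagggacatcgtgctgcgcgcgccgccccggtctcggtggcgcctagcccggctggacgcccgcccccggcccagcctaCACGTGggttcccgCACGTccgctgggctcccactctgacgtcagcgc
Bnip3: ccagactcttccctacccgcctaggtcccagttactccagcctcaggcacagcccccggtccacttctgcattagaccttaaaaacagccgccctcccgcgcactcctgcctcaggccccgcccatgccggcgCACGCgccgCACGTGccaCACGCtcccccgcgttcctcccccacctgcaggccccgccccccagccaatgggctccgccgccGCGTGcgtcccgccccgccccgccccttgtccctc
P4ha1 and Pfkp each held 3 matches, fewer than the 5 of Ldha or Bnip3. Egln3, the other member with an entry whose mRNA rose, held 1 match and is not shown. The matches of Ldha and Bnip3 include palindromic CACGTG, counted once on each strand, so their 5 matches are not 5 separate places. P4ha1 and Pfkp hold no such palindrome.

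Library totals ran from 13435521 to 18216729 counts with DMSO and from 12438009 to 19534653 with Yoda1, and a single member had between 90 and 40176 counts in a library. Values are CPM, that is, counts relative to the TMM-scaled size of each library, in which 1 count was worth between 0.0514 and 0.0807 CPM. Genes were called at an adjusted p under 0.05 (edgeR, quasi-likelihood F test, Benjamini-Hochberg method across 12239 tested genes), and every adjusted p and standard error (SE) below comes from that fit. All 13 ILC2 markers examined were tested, and their summed level was 17887 to 18438 CPM with DMSO and 20147 to 20518 with Yoda1, with 6 higher and 1 lower. Il13, a cytokine gene, had the highest level among these markers. The paper reports a slight increase of Il13 mRNA with Yoda1 in its bulk RNA-seq. By qPCR it found no substantial change, and by PrimeFlow none. Summed T cell markers were at 62.0 to 67.4 and 66.7 to 77.3 CPM with 0 of 6 called, and summed NK cell markers at 56.2 to 57.7 and 59.6 to 65.2 CPM with 1 of 4 higher. Markers of macrophages, mast cells or basophils, eosinophils, epithelium and erythroid cells each summed to at most 6.82 CPM in any library, and Csf1r, Mrc1, Marco, Lyz2, Fcer1a, Prg2, Epx, Sftpc, Scgb1a1 and Hbb-bs had at most 3 counts in each. The endothelial list summed to 212 to 225 CPM in the DMSO libraries and 217 to 221 CPM in the Yoda1 libraries through Pecam1, with Cdh5 and Cldn5 at no more than 3 counts. The part of the ILC2, T cell and NK cell marker shifts in the results on the module was not tested. In bulk libraries, fewer cells of a type and less RNA per cell cannot be told apart.

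In Yoda1-treated ILC2s, 5 of the 34 members rose, namely Ndrg1, Pfkp, Slc2a3, P4ha1 and Egln3, and Pfkm fell. The call for Egln3 was lost in 11 of 16 alternative settings, and the other 5 held in all 16. That is 17.6% of the members, beside 10.9% of all genes tested. By direction it is 14.7% of members higher beside 6.04% of all genes, and 2.94% lower beside 4.84%. The changes were small: the largest was 1.39-fold, for Ndrg1, and the other 4 increases were 1.12- to 1.15-fold. In 7 of the 34 members, beside 15.5% of all genes, all 4 libraries of one group lay beyond all 4 of the other. In 6 of them the Yoda1 libraries were the higher ones (Slc2a3, Pfkp, Pgam1, Slc16a1, P4ha1 and Ndrg1), beside 8.44% of all genes, and in 1 the lower ones (Pfkm), beside 7.05%. The median log2 fold change of the members was 0.052, beside -0.0053 over all genes tested, and 24 of 34 members (70.6%) lay above 0, beside 48.4% of all genes. Over 16 alternative settings 20 to 25 members lay above 0, with 20 under library size only and under upper-quartile factors. Relative to the median of all genes, that of the members was 0.057, and it ranged from 0.047 to 0.062 over 16 alternative settings. Among all genes the split of calls was 739 higher and 592 lower with TMM, but 505 and 958 with upper-quartile factors.

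**Figure D1:**
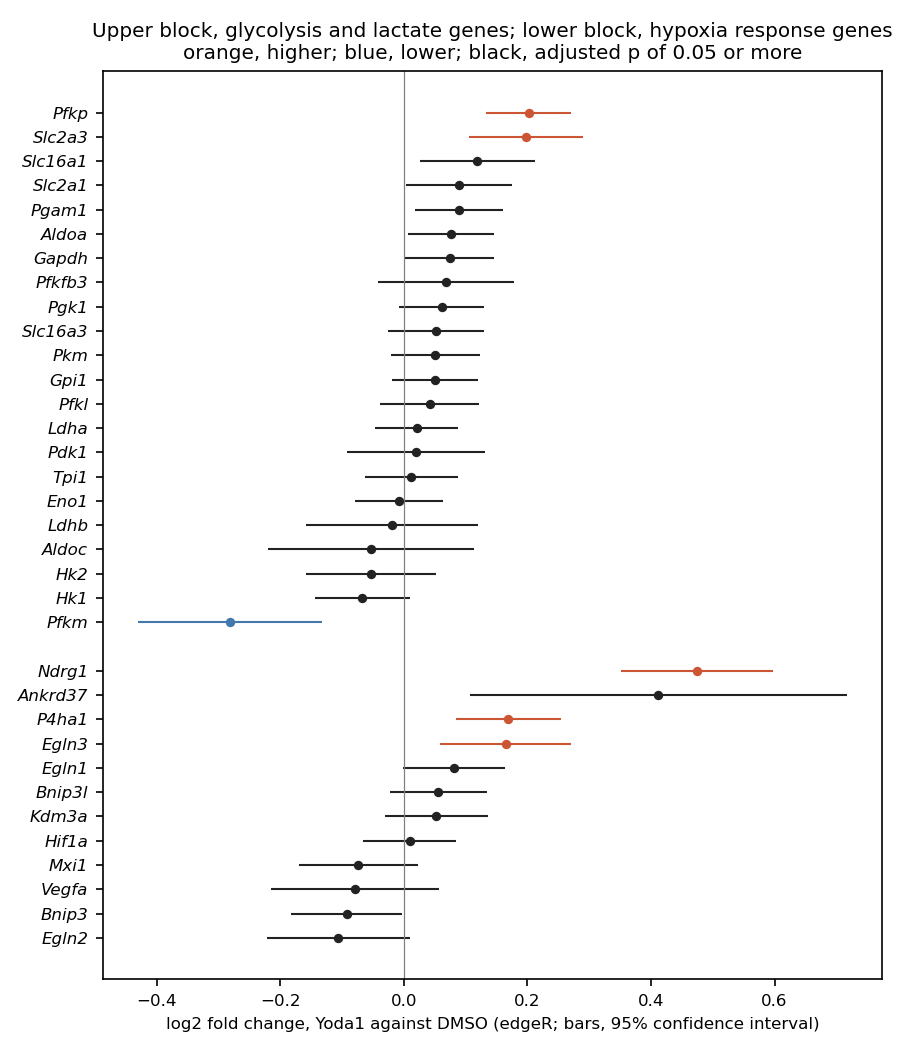
Log2 fold change of each of the 34 members, Yoda1 against DMSO, with its 95% confidence interval from edgeR (n = 4 libraries per group), ordered by size within the glycolysis block and the hypoxia block. Most members lie within a narrow band around 0, and Ndrg1 at 0.47 and Pfkm at -0.28 lie farthest out among the called genes.

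Glucose enters the cell through facilitative transporters. Slc2a3 (GRCm38 chr6:122727809-122801640, minus strand) encodes the high-affinity transporter GLUT3. It had 65.8, 72.5, 72.8 and 72.0 CPM in the 4 DMSO libraries and 77.6, 80.4, 85.3 and 81.3 CPM in the 4 Yoda1 libraries. Every Yoda1 library was thus above every DMSO library, and the lowest value belonged to DMSO replicate 1. The increase was 1.15-fold, with a log2 fold change of 0.20 (SE 0.045, adjusted p = 0.00375). Slc2a1, which encodes GLUT1, the main transporter of many growing cells, had 107, 107, 110 and 112 CPM with DMSO and 121, 117, 106 and 119 CPM with Yoda1. Of the Yoda1 libraries, 3 lay above the control range and Yoda1 replicate 3 below it, so the groups overlapped. Its log2 fold change was 0.090 (SE 0.042, adjusted p = 0.177). The difference between the transporters' responses was not tested. Per kilobase of exon, Slc2a1 was the more abundant transporter, with 76.1% ± 0.811 (SD, n = 4) of the summed level of both genes with DMSO and 74.6% ± 1.79 with Yoda1, and the shares overlapped between the groups.

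The first enzyme step is run by hexokinases, which trap glucose as glucose 6-phosphate. Hk1, the widely expressed form, averaged 306 ± 15.1 CPM in controls and 292 ± 5.67 after Yoda1 (SD, 4 libraries each), and Hk2, the inducible form, was at 200 ± 16.0 and 193 ± 10 CPM. Neither passed the test (adjusted p = 0.269 and 0.557), with log2 fold changes of -0.067 and -0.054. Gpi1, the isomerase that follows, had a log2 fold change of 0.050 (adjusted p = 0.372).

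Phosphofructokinase commits the sugar to glycolysis and is built from 3 kinds of subunit, of which 1 rose and 1 fell. Pfkp (chr13:6579768-6648777, minus strand), the platelet-type subunit, had 462, 461, 446 and 461 CPM with DMSO and 533, 521, 519 and 531 CPM with Yoda1. The groups were far apart relative to their spread, and the lowest Yoda1 library was above the highest control. Its increase was 1.15-fold, with a log2 fold change of 0.20 (SE 0.033, adjusted p = 9.88e-05).
Pfkm (chr15:98092589-98132451, plus strand), the muscle-type subunit, had 22.7, 20.6, 20.4 and 20.3 CPM with DMSO and 18.7, 16.1, 17.2 and 17.3 CPM with Yoda1. All 4 Yoda1 libraries lay below all 4 controls, among which replicate 1 was the highest. The log2 fold change was -0.28 (SE 0.073, adjusted p = 0.0109), from 230 to 376 counts per library. Pfkl, the liver-type subunit, had 110, 116, 116 and 110 CPM with DMSO and 113, 116, 120 and 116 CPM with Yoda1, so that its groups overlapped. It did not pass the test (log2 fold change 0.042, 95% confidence interval -0.038 to 0.12, adjusted p = 0.551).
The subunits also differ in amount. Per kilobase of exon Pfkp held 59.5% ± 0.704 of the summed subunit level with DMSO and 63.4% ± 0.554 with Yoda1 (SD, 4 libraries each). Pfkl held 29.5% ± 0.944 and 28.2% ± 0.774. Pfkm held 11% ± 0.531 and 8.39% ± 0.449. The shares of Pfkp and Pfkm did not overlap between the groups, those of Pfkl did, and with the longest transcript in place of the merged exons the order of the subunits was the same.
The ratio of Pfkp to Pfkm counts, which needs no scaling between libraries, was 20.4, 22.4, 21.9 and 22.7 with DMSO and 28.5, 32.3, 30.1 and 30.7 with Yoda1. The ratio was higher in every Yoda1 library, and since the pair was picked for its opposite responses, no test is given. Exons of Pfkp overlap those of Pitrm1 on the opposite strand, and exons of Pfkm overlap those of Senp1 on the opposite strand and of Gm26513 on the same strand. A directional kit was used, but whether the counting used strand is not given in the sources used here. Pfkfb3, whose product makes the fructose 2,6-bisphosphate that activates phosphofructokinase, was at 36.2 ± 1.71 and 38.0 ± 0.422 CPM and did not pass the test (log2 fold change 0.069, adjusted p = 0.46).

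**Figure D2:**
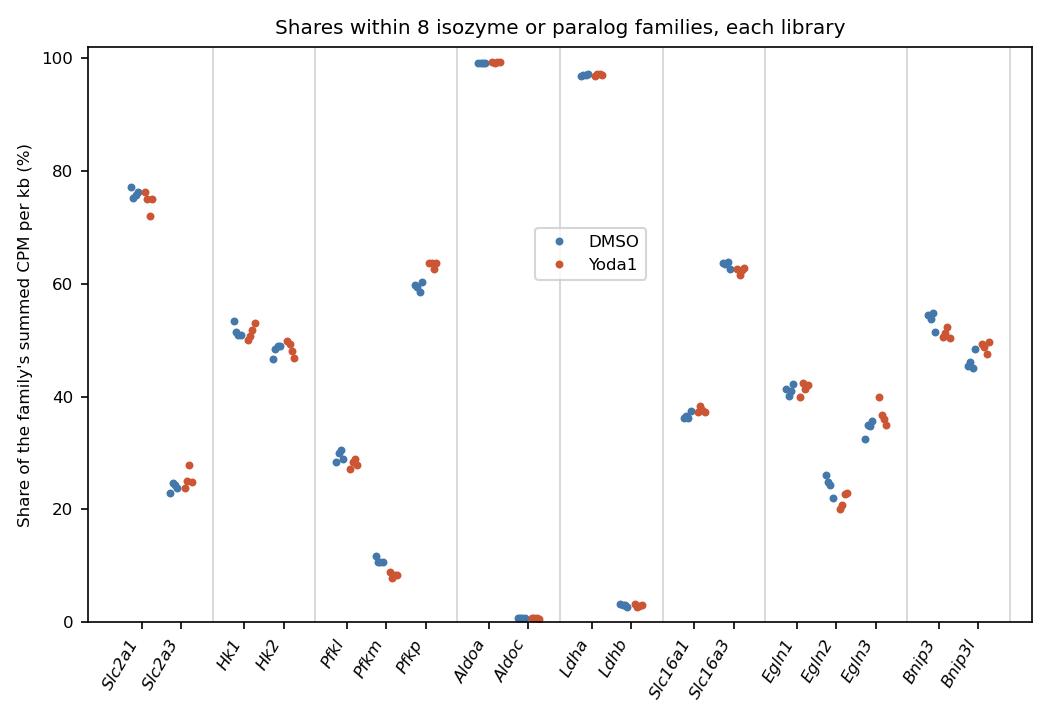
Share of each isozyme or paralog in the summed CPM per kilobase of merged exon of its family, in percent, with a point for each DMSO and Yoda1 library (n = 4 per group). Among the 8 families, the shares of Pfkp (59.5% to 63.4%) and Pfkm (11% to 8.39%) are the ones whose groups do not overlap.

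Below the phosphofructokinase step no enzyme of the module passed the test. Aldoa and Aldoc encode aldolases, Tpi1 the triose phosphate isomerase, Gapdh the dehydrogenase that makes NADH, Pgk1 and Pkm the kinases that make ATP, Pgam1 the mutase and Eno1 the enolase between them. Over these 8 genes, log2 fold changes ran from -0.053 for Aldoc to 0.089 for Pgam1.
Pgam1 came closest, with 325, 332, 312 and 327 CPM with DMSO and 341, 337, 352 and 348 CPM with Yoda1. The groups did not overlap, but the difference was 1.06-fold and the adjusted p was 0.0986. Nearest to 0 were Eno1 (log2 fold change -0.0074, SE 0.035, adjusted p = 0.926) and Tpi1 (0.012, SE 0.037, adjusted p = 0.881). The highest interval bound among the 19 glycolysis and lactate members that did not pass was 0.21 and the lowest -0.22 on the log2 scale.
Near-identical copies limit the counts here. In 11 members over 10% of the 50-base words of their longest transcript also occur in other genes. The share ran from 10.2% in Gpi1 to 68.0% in Pgk1 and 72.2% in Eno1, and Gapdh shares words with 213 other genes. The other 7 are Aldoa, Pgam1, Pkm, Ldha, Ldhb, Bnip3 and Bnip3l, and the values of all 11 are uncertain for this reason. The members that passed the test shared at most 1.45%.

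The lower enzymes dominated the module in amount. Per kilobase of exon with DMSO, Aldoa had 613 ± 16.4 CPM, Ldha 496 ± 6.81 and Pgk1 492 ± 10.3 (SD, n = 4), followed by Pkm at 390 ± 13.7 and Gapdh at 322 ± 12.6 CPM per kilobase. Ldha and Pgk1 differed by less than their spread. At the lower end stood Ndrg1 with 4.35 ± 0.313 and Ankrd37 with 4.09 ± 0.457 CPM per kilobase, also within each other's spread. With the longest transcript as the length, Aldoa stayed first and Ldha second, while Pkm moved ahead of Pgk1, Eno1 (452 CPM per kilobase) moved ahead of Gapdh (405), and Aldoc (5.69) stood lowest, under Ankrd37 (6.80) and Ndrg1 (7.09). The 14 glycolytic enzymes together took 0.935% to 0.983% of a DMSO library's counts and 0.962% to 0.997% of a Yoda1 library's, and these ranges overlapped.

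Lactate dehydrogenase A, the form that favours lactate, averaged 1642 ± 22.5 CPM in controls and 1666 ± 30.9 after Yoda1 (SD, 4 libraries each). Its log2 fold change of 0.021 did not pass the test (95% confidence interval -0.046 to 0.089, adjusted p = 0.751). Ldhb, the heart form, was at 24.1 ± 1.37 and 23.9 ± 1.63 CPM (adjusted p = 0.901), and Ldha held 97.0% of the summed level per kilobase with DMSO and 97.1% with Yoda1.
Lactate leaves through Slc16a1 (MCT1) and Slc16a3 (MCT4). Slc16a1 had 60.7, 59.5, 60.2 and 61.9 CPM with DMSO and 64.9, 68.0, 67.9 and 62.4 CPM with Yoda1. The Yoda1 libraries were all above the controls, replicate 4 only just. The log2 fold change was 0.12 (SE 0.045) and missed the threshold (adjusted p = 0.0889). Slc16a3 had 128, 124, 128 and 124 CPM with DMSO and 131, 131, 136 and 126 CPM with Yoda1, with overlapping groups (log2 fold change 0.052, adjusted p = 0.421). Pdk1, the kinase that keeps pyruvate out of the mitochondrion and a textbook HIF target, was at 42.7 ± 2.60 and 43.1 ± 1.91 CPM (log2 fold change 0.020, adjusted p = 0.868). In all, 3 of the 22 glycolysis and lactate members passed the test (13.6%, beside 10.9% of all genes). By direction, 2 were higher (9.09% of the class, beside 6.04% of all genes) and 1 lower (4.55%, beside 4.84%). The class had a median log2 fold change of 0.051.

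**Figure D3:**
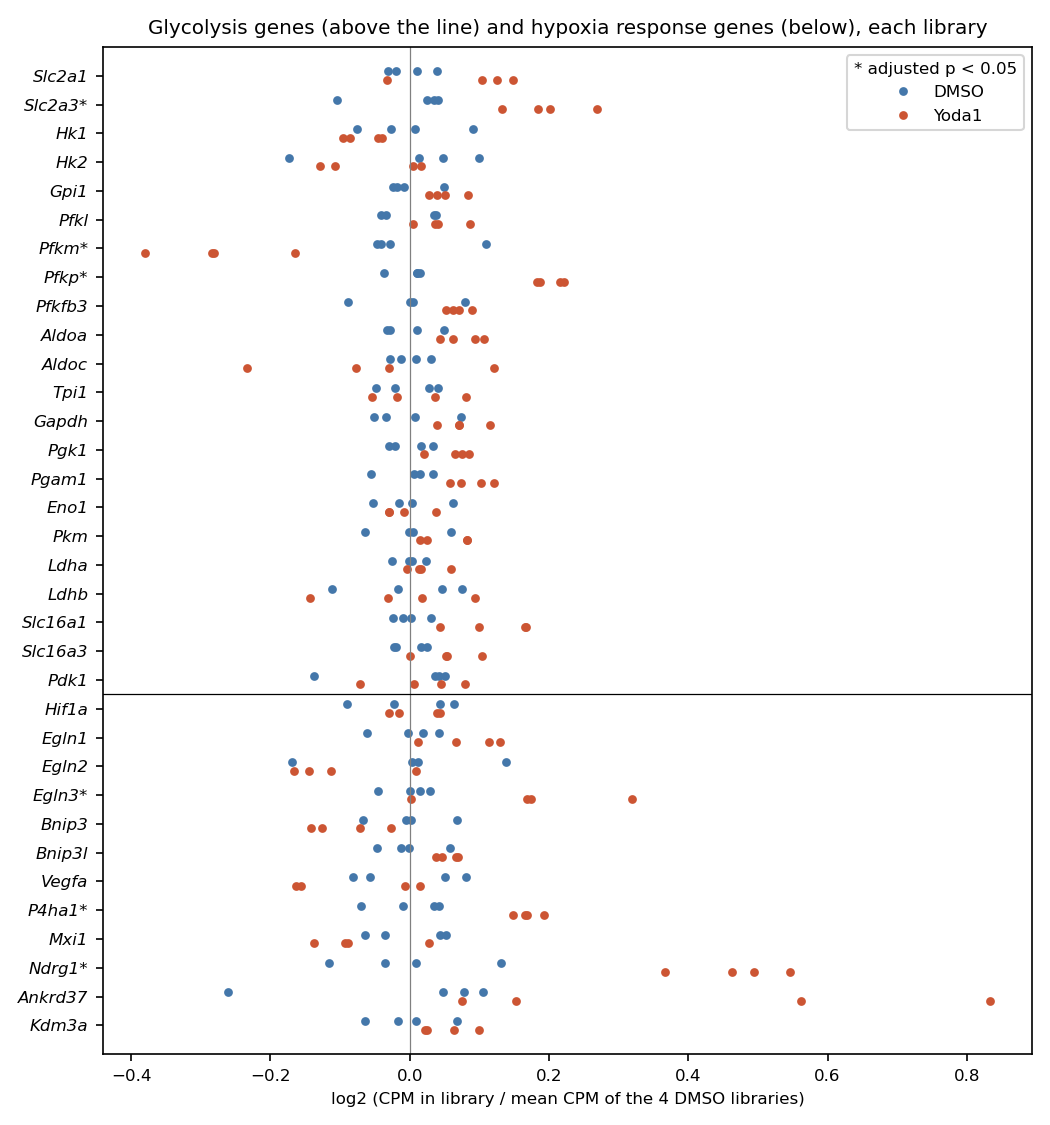
Level of every member in each of the 8 libraries, as log2 of its CPM relative to the member's mean over the DMSO libraries. Ndrg1, Pfkp, Slc2a3 and P4ha1 are higher in all 4 Yoda1 libraries and Pfkm is lower in all 4, while Egln3 and Ankrd37 are raised most in Yoda1 replicate 1.

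Oxygen sensing was described by Hif1a and the prolyl hydroxylases. Hif1a mRNA averaged 915 ± 43.8 CPM in controls and 922 ± 24.0 after Yoda1 (SD, 4 libraries each), a log2 fold change of 0.0099 (95% confidence interval -0.065 to 0.085, adjusted p = 0.906). Egln3 (chr12:54178981-54203860, minus strand), a hydroxylase that is itself a HIF target, had 65.8, 68.0, 68.7 and 69.3 CPM with DMSO and 84.8, 76.7, 76.4 and 68.0 CPM with Yoda1. Of the Yoda1 libraries, 3 exceeded all controls, and Yoda1 replicate 4 lay within their range. The log2 fold change was 0.16 (SE 0.051, adjusted p = 0.0362).
Without Yoda1 replicate 1, the highest, the log2 fold change was 0.11 and the adjusted p 0.182, and the call was likewise lost on leaving out any other single library (7 of 8 in all) except Yoda1 replicate 4 (adjusted p = 0.00609). Egln1, the main oxygen sensor, had 113, 105, 109 and 111 CPM with DMSO and 115, 120, 118 and 110 CPM with Yoda1 and did not pass (log2 fold change 0.081, adjusted p = 0.21). Egln2 was at 50.5 ± 4.36 and 47.1 ± 2.60 CPM and had a log2 fold change of -0.11 (adjusted p = 0.247). Per kilobase, Egln3 held 34.5% ± 1.36 of the summed hydroxylase level with DMSO and 36.9% ± 2.11 with Yoda1, and the shares overlapped.

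Among the 8 further HIF targets, Ndrg1 and P4ha1 rose. Ndrg1, a stress-responsive gene of cell growth and differentiation that is widely used as a hypoxia marker, had 26.5, 28.9, 28 and 31.4 CPM with DMSO and 37.0, 41.9, 40.4 and 39.6 CPM with Yoda1. The groups were well separated, with the lowest Yoda1 library above the highest control, DMSO replicate 4. The increase was 1.39-fold (95% confidence interval 1.28 to 1.51), with a log2 fold change of 0.47 (SE 0.060, adjusted p = 1.78e-06). Ndrg1 lies at chr15:66929318-66969640 on the minus strand of GRCm38, where exons of Gm17035 and Gm2895 overlap it on the opposite strand.
P4ha1 (chr10:59323296-59373304, plus strand) encodes the catalytic subunit of collagen prolyl 4-hydroxylase, which works in collagen folding and is distinct from the oxygen sensors. It had 74.9, 78.1, 81.0 and 80.6 CPM with DMSO and 89.9, 87.2, 88.4 and 88.2 CPM with Yoda1. The Yoda1 values were close together and all above the controls. The increase was 1.12-fold, with a log2 fold change of 0.17 (SE 0.042, adjusted p = 0.00705).

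The other 6 HIF targets did not pass. Ankrd37, a small ankyrin-repeat gene, had the largest estimate among them, with 6.51, 5.26, 6.78 and 6.65 CPM with DMSO and 11.2, 7.0, 9.30 and 6.63 CPM with Yoda1. Yoda1 replicates 1 and 3 were high, while replicate 4 lay among the controls. From 90 to 139 counts per library, its log2 fold change was 0.41 (SE 0.15, adjusted p = 0.0765), and it passed in 4 of 16 alternative settings. Its exons overlap those of Lrp2bp and Ufsp2 on the opposite strand.
Bnip3 and Bnip3l, receptors that mark mitochondria for removal, had log2 fold changes of opposite sign, -0.092 (SE 0.044, adjusted p = 0.186) and 0.056 (SE 0.038, adjusted p = 0.384). Bnip3 was at 79.0 ± 3.0 and 74.2 ± 2.74 CPM, and Bnip3l at 116 ± 3.55 and 121 ± 1.30 CPM (SD, 4 libraries each). Vegfa, the angiogenic factor, was at 25.8 ± 1.42 and 24.5 ± 1.61 CPM (log2 fold change -0.079, adjusted p = 0.5). Mxi1, a MYC antagonist, and Kdm3a, a histone demethylase, had log2 fold changes of -0.074 (adjusted p = 0.344) and 0.053 (adjusted p = 0.451). Of the 12 oxygen-sensing and HIF target members, 3 passed the test (25.0%, beside 10.9% of all genes), all higher (beside 6.04% of all genes). Egln3, 1 of the 3, held its call in 5 of 16 alternative settings. The difference between this class's share and that of the glycolysis members was not tested. The median log2 fold change of the 12 was 0.054. In single libraries their median log2 level, relative to the DMSO mean, was -0.016 to 0.032 with DMSO and 0.0069 to 0.056 with Yoda1. These ranges overlapped. That of the glycolysis members was -0.021 to 0.026 with DMSO and 0.038 to 0.082 with Yoda1. Both sets of ranges rest on TMM scaling, and both class medians were lower with upper-quartile factors.

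**Figure D4:**
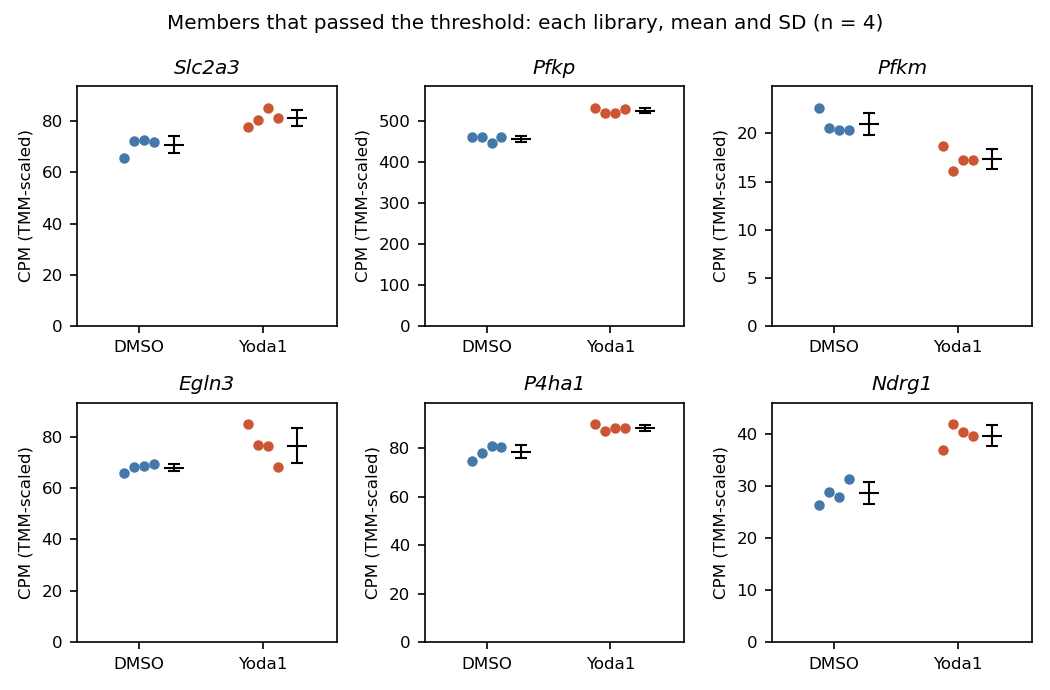
CPM of each library for the 6 members that passed the test, with the mean and SD of each group beside its points (n = 4 DMSO and 4 Yoda1 libraries). The groups are apart in Slc2a3, Pfkp, Pfkm, P4ha1 and Ndrg1 and overlap in Egln3 through Yoda1 replicate 4 at 68.0 CPM.

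A wider list of 75 genes of glucose use, which holds minor isozymes, pyruvate entry, the pentose phosphate route, glycogen and shuttles, had 59 tested genes. Of these, 11 passed the test (18.6%, beside 10.9% of all genes). By direction, 5 were higher (8.47% of the list, beside 6.04% of all genes) and 6 lower (10.2%, beside 4.84%). The list's median log2 fold change was 0.0012. It was chosen with earlier results of these data known, so the shares are descriptions and were not tested. Txnip, an arrestin that restrains glucose uptake and follows sugar supply through the MondoA and Mlx transcription factors, fell most. It had 710, 689, 695 and 681 CPM with DMSO and 468, 480.1, 477 and 469 CPM with Yoda1. The groups were far apart, and the Yoda1 libraries were close together. The log2 fold change was -0.55 (SE 0.033, adjusted p = 3.22e-13). Arrdc4, the related arrestin under the same control, fell from 40.7 ± 4.04 to 30.7 ± 1.80 CPM (SD, 4 libraries each), a log2 fold change of -0.40 (adjusted p = 7.84e-05), and its groups did not overlap either.
Also lower were Pygl, the liver-type glycogen phosphorylase (-0.32, adjusted p = 0.00584), Slc2a6, a lysosomal hexose transporter (-0.26, adjusted p = 0.00939), Pck2, the mitochondrial enzyme that makes phosphoenolpyruvate (-0.25, adjusted p = 5.77e-04), and H6pd, the endoplasmic reticulum counterpart of glucose 6-phosphate dehydrogenase (-0.22, adjusted p = 0.00701), all as log2 fold changes. Higher were Got1, the cytosolic aspartate aminotransferase (0.25, adjusted p = 7.17e-05), Mlx itself (0.18, adjusted p = 0.0149), Mpc2, a subunit of the mitochondrial pyruvate carrier (0.18, adjusted p = 0.0417), and Gpd2, the mitochondrial glycerol phosphate dehydrogenase (0.18, adjusted p = 0.00916). The groups of Mpc2 overlapped, and it passed in 7 of 16 alternative settings and in 2 of the 8 with a library left out, those without DMSO replicate 1 or Yoda1 replicate 2 (adjusted p up to 0.141 otherwise). Mlx missed the threshold when DMSO replicate 2 (adjusted p = 0.0518) or Yoda1 replicate 4 (0.0729) was left out, and Slc2a6 when Yoda1 replicate 2 was (0.0538). Mlxip, the MondoA gene, was also higher (0.12, adjusted p = 0.0485), but its groups overlapped and it passed in 5 of 16 alternative settings. Got1 and Gpd2 belong to the shuttles that carry cytosolic NADH equivalents to mitochondria.

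A wider list of 78 genes of the hypoxia pathway had 75 symbols in the files and 62 tested genes. Of these, 19 passed the test (30.6%, beside 10.9% of all genes). By direction, 16 were higher (25.8% of the list, beside 6.04% of all genes) and 3 lower (4.84%, beside 4.84%). This list too was chosen with earlier results of these data known, so the shares are descriptions and were not tested. The list's median log2 fold change was 0.060, and 44 of 62 lay above 0. Some calls were not stable. Ero1l (log2 fold change 0.11, adjusted p = 0.0304) passed in 8 of 16 alternative settings and Tceb2 (0.15, adjusted p = 0.0217) in 9. Hilpda, a lipid droplet protein that blocks triglyceride breakdown, rose most, with 19.6, 19.9, 18.9 and 22.5 CPM with DMSO and 32.4, 31.0, 32.3 and 29.5 CPM with Yoda1. Every Yoda1 library was well above every control. The increase was 1.55-fold, with a log2 fold change of 0.63 (SE 0.067, adjusted p = 6.92e-08).
The other large increases, as log2 fold changes, were those of Hmox1, the heme-degrading oxygenase (0.38, adjusted p = 4.78e-05), Trf, which encodes transferrin (0.35, adjusted p = 0.0267), Tmem45a (0.30, adjusted p = 0.0232) and Vegfc, a lymphatic growth factor (0.28, adjusted p = 0.00267). Trf passed in 10 of 16 alternative settings, and lost its call with DESeq2 (adjusted p = 0.0579), the replicate block (0.0515) and without DMSO replicate 2 or 3 or Yoda1 replicate 1 or 3 (up to 0.0887). Tmem45a passed in 11 of 16, and lost its call with the replicate block (adjusted p = 0.0503) and without DMSO replicate 2 or 3 or Yoda1 replicate 3 or 4 (up to 0.0837). Smaller increases were those of Cited2, which competes with HIF for its coactivator (0.24, adjusted p = 4.55e-04), Siah2, a ubiquitin ligase for the prolyl hydroxylases (0.24, adjusted p = 0.00261), and Pnrc1, a nuclear receptor coregulator (0.22, adjusted p = 1.95e-04). Stc2, a secreted glycoprotein, and Ppp1r3b, which directs a phosphatase to glycogen, fell, with log2 fold changes of -0.51 (adjusted p = 5.37e-04) and -0.39 (adjusted p = 0.00206). Tfrc was lower too (-0.19, adjusted p = 5.05e-04), and its call held in all 16 alternative settings. Hmox1, Trf, Vegfc and Siah2 are also known to respond to stimuli other than oxygen, and the list holds Rora, which is also among the ILC2 markers.

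**Figure D5:**
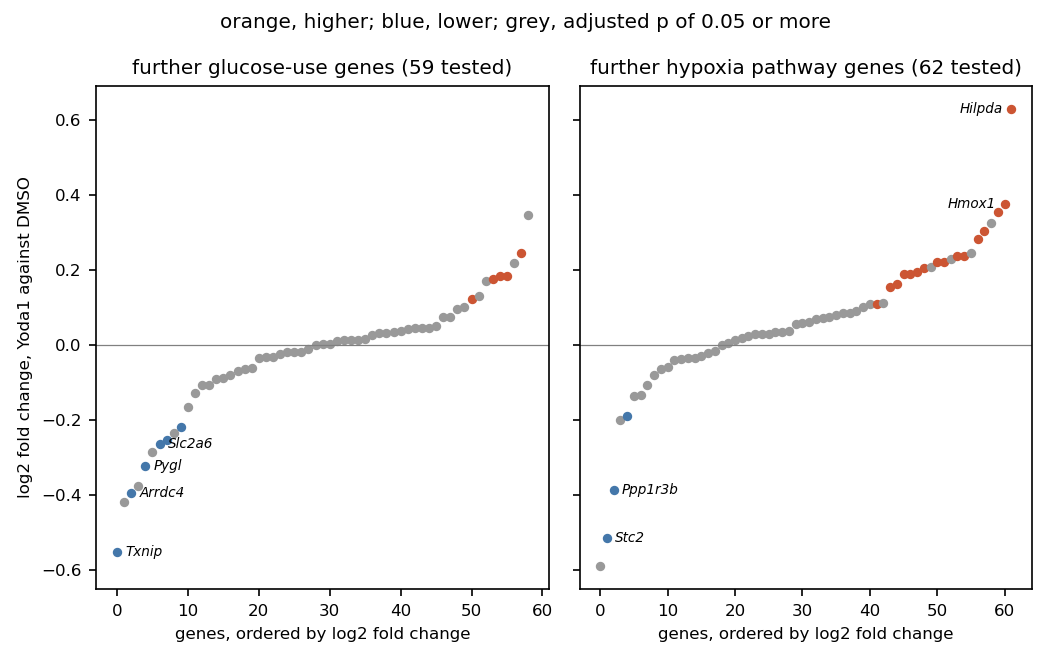
Log2 fold change of the tested genes of the wider glucose-use list (59 genes) and hypoxia list (62 genes), Yoda1 against DMSO, ordered by size, in orange (higher) or blue (lower) where the test was passed and grey otherwise. Txnip at -0.55 stands lowest among the named glucose-use genes and Hilpda at 0.63 highest among the named hypoxia genes.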

How the data were processed

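Whole-number read counts per gene symbol were deposited by the authors for each of 8 libraries, without normalization. Reads were checked with FastQC and processed with FASTX Trimmer and BBMap per the study's methods, which give Cufflinks for expression and Cuffdiff for the study's own tests. The submitters' processing notes name TopHat and mm10. Versions, annotation and strand setting are not given in the sources used here, and which program counted the reads could therefore not be stated. Every sample column was used. Groups were taken from the sample titles.

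Yoda1 was compared with DMSO over all genes in R 4.3.3 with edgeR 4.0.16 (filterByExpr with a minimum count of 10 and a minimum total of 15, TMM, robust quasi-likelihood test, Benjamini-Hochberg threshold 0.05). The standard error is the absolute log2 fold change divided by the root of F. The procedure was tested on simulated data in which the planted changes were larger than those of the called members. Recovery at the sizes seen in the members was therefore not tested. Lengths, positions and exon overlaps came from GENCODE M21 (GRCm38), and the Aldoa symbol, carried by more than 1 GENCODE gene, was placed by its RefSeq coordinates.

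The members and the wider lists were chosen with earlier results of these data known. Values in every library are given for members past the threshold, members whose groups do not overlap and a family partner of each. The 10 called genes with the largest log2 fold changes are named per wider list, and Mlxip, Tfrc, Ero1l and Tceb2 are named besides. The alternatives were library size only, upper-quartile and RLE factors, DESeq2 1.42.0, limma-voom (limma 3.58.1), other filters on low counts, the replicate number as a block, each library left out in turn and another transcript length. Reads without molecular identifiers are not independent molecules. The result of 1 cell type marker list is not reported here.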

Additional observations from a re-analysis of the deposited data

Results flagged for a closer look

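Of the 68 member-by-group sets of 4 libraries, 4 held a library that stood apart by Dixon's criterion, where chance gives about 1 in 20 (3.4 here). All 4 were control libraries. DMSO replicate 1 was low for Slc2a3 at 65.8 CPM, below the next value of 72.0. The same library was high for Pfkm at 22.7 CPM, above 20.6. DMSO replicate 3 was low for Pfkp at 446 CPM, below 461. DMSO replicate 2 was low for Pdk1 at 38.8 CPM, below 43.8. Slc2a3, Pfkm and Pfkp passed the edgeR test in each of the 8 fits that left out a library.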

How the results depend on the processing

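Of the 544 comparisons of a member with its value under 1 of 16 alternative settings, 508 kept their direction and side of the threshold. Slc2a3, Pfkp, Pfkm, P4ha1 and Ndrg1 passed in all 16. Egln3 lost its call in 11 of 16, with adjusted p up to 0.182, while Ankrd37 gained one in 4, Slc2a1 in 1 (without Yoda1 replicate 3, adjusted p = 0.0486) and Gapdh in 1 (without DMSO replicate 1, adjusted p = 0.0453). The members called numbered 5 to 7 when each library was left out.

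Only uncalled log2 fold changes turned sign, in 7 members, the largest being -0.027. With library size only and with upper-quartile factors, Tpi1 was at -0.0095 and -0.019, Ldha at -0.00041 and -0.0093, Pdk1 at -0.0020 and -0.011, and Hif1a at -0.012 and -0.021. With each library left out, the ranges were -0.12 to 0.014 for Aldoc, -0.0096 to 0.034 for Tpi1, -0.024 to 0.014 for Eno1, -0.052 to 0.023 for Ldhb, -0.027 to 0.044 for Pdk1 and -0.019 to 0.032 for Hif1a. These scalings shifted the median of all genes to -0.027 with library size and -0.036 with upper-quartile factors (-0.0019 with at least 10 counts in every library), and with it those of the members to 0.030 and 0.021, of the glycolysis members to 0.029 and 0.020, and of the hypoxia members, with upper-quartile factors, to 0.024. With a library left out, the median of the members was between 0.042 and 0.055.

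Over all genes, the lower calls numbered 958 with upper-quartile factors, and 367 to 677 with each library left out, where DMSO replicate 2 (367) and Yoda1 replicate 4 (374) mattered most. Of the wider glucose-use genes, 3 were higher with library size only, upper-quartile factors or DESeq2, and 2 to 4 with a library left out, lowest without DMSO replicate 2 or Yoda1 replicate 4 and at 3 without DMSO replicate 4 or Yoda1 replicate 1. Beyond the construction of each setting, the cause was not tested.

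Same-numbered libraries did not deviate together (correlations -0.028 to 0.071, and only DMSO replicate 2 matched its own number best), so the numbers were not taken as pairs. With the replicate block 966 genes were called in place of 1331, and of the members 6, with Egln3 lost (adjusted p = 0.0709) and Ankrd37 gained (adjusted p = 0.0453). Among the members, Ankrd37 had the fewest counts in a library, 90.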
